A study of Rattus norvegicus with 4 samples.

Results

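The genes described here encode the proteins of the mitochondrial ribosome and are named Mrpl (large subunit) or Mrps (small subunit) followed by a number. A gene was a member when the array annotation mapped a probe set to exactly 1 symbol of that form, which gave 97 probe sets for 73 genes, out of 14217 genes with a probe set of their own. Where a gene had several probe sets, the one with the highest mean signal over all arrays stood for it, and 46 large-subunit and 27 small-subunit genes resulted. All 73 passed the filter on dim probe sets, so none was left out of the test. The rule reads letter case, and 3 genes that the annotation writes in lower case are not among the 73: mrpl9 (log2 fold change 0.10 ± 0.13, SE), mrpl11 (−0.08 ± 0.11) and mrpl24 (0.03 ± 0.13), each with overlapping groups. With them the median over 76 genes was 0.06, as over the 73.

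The tissue was the ventral prostate lobe of male F344 rats, a laboratory strain, 6 weeks old. PhIP-treated rats had received 300 mg/kg of PhIP, a heterocyclic amine that forms when meat is cooked and acts as a prostate carcinogen in rats, and control rats had received none. Both groups were killed after 2 days. The 4 rats of a group were hybridized as pools, 2 rats to an array, named here control 1, control 2, PhIP 1 and PhIP 2. Pooling hides part of the variation between animals.

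Mitochondria carry their own ribosomes, which translate the few proteins encoded by mitochondrial DNA, all of them core subunits of the respiratory chain and ATP synthase. The RNA of these ribosomes comes from mitochondrial DNA, whereas every one of their proteins is encoded in the nucleus, made in the cytosol and imported. Many of the proteins have a bacterial homologue and others are found only in mitochondria. The nuclear respiratory factors NRF1 and GABP are known activators of such genes, and secretory epithelium such as that of the ventral prostate has a high demand for both protein synthesis and energy.

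Most mitochondrial ribosomal protein genes had a slightly higher mean in PhIP than in control, and no single gene passed the test. The median log2 fold change over the 73 genes was 0.06 (range −0.33 to 0.43, SD over genes 0.15), and 49 genes stood above 0 and 24 below. The 4 genes with an unadjusted limma p under 0.05 were all higher in PhIP: Mrpl14, Mrpl13, Mrps17 and Mrps33, at 1.35-, 1.27-, 1.23- and 1.20-fold. Log2 fold changes are differences of log2(signal + 10) between the group means, and limma's moderated test with Benjamini-Hochberg adjustment was run over all 18625 probe sets tested. No member had an adjusted p under 0.05, the lowest being 0.284 for Mrpl14, while 0.0268% of all probe sets and 0.00952% of the genes tested passed. In bulk tissue, fewer cells of a type and less RNA per cell cannot be told apart.

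At an unadjusted p under 0.05, 5.48% of members passed in either direction, against 14.6% of genes. The 4 higher members were 5.48% of the 73, against 6.12% of the 10506 genes tested that were higher at that threshold. None of the 73 was lower at that threshold, against 8.51% of the 10506. Members whose arrays did not overlap between the groups numbered 24 on the higher side (32.9%, against 21.6% of genes) and 8 on the lower side (11.0%, against 27%). A log2 fold change above 0 was seen in 67.1% of members and 45.9% of genes tested, whose median was −0.03.

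Genes of similar brightness lay closer to the members. The members' mean log2 levels ran from 6.33 to 10.66, and among the 2249 genes within the middle range of the members (7.46 to 8.70, the quartiles), the median log2 fold change was 0.01. Of these 2249 genes, 53.2% stood above 0, 25.8% did not overlap on the higher side and 21.8% on the lower, and at an unadjusted p under 0.05 there were 6.63% in each direction. This set of genes was added after the values had been seen.

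The result rests on small differences between 4 arrays. The median absolute difference between the control arrays was 0.15 over the members and that between the PhIP arrays 0.08, against a median absolute log2 fold change of 0.12. The mean log2 level of the 73 genes was 8.08 for control 1, 8.11 for control 2, 8.14 for PhIP 1 and 8.17 for PhIP 2. Without control 1, for example, Mrpl57 (0.45) and Mrpl50 (0.52) were higher, and Mrpl28 (−0.50) and Mrps26 (−0.36) lower. With all arrays, Mrpl50 had 217.9 and 137.6 in the controls against 205.2 and 198.5 after PhIP (0.21 ± 0.20). Mrps26 had 282.1 and 399.4 in the controls against 315 and 301.2 after PhIP (−0.12 ± 0.17). The groups of both overlapped, and control 2 lay apart from the other arrays. In the fit without control 1, control 2 alone stands for its group and is assumed to vary like the PhIP arrays. There 2334 probe sets passed, against 5 with all arrays, and 12.6% of genes were higher and 16.3% lower at the unadjusted threshold. The higher members at the unadjusted threshold numbered 11 without control 2, 1 without PhIP 1 and 0 without PhIP 2, where 9.51%, 2.52% and 2.06% of genes were higher.

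**Figure D1:**
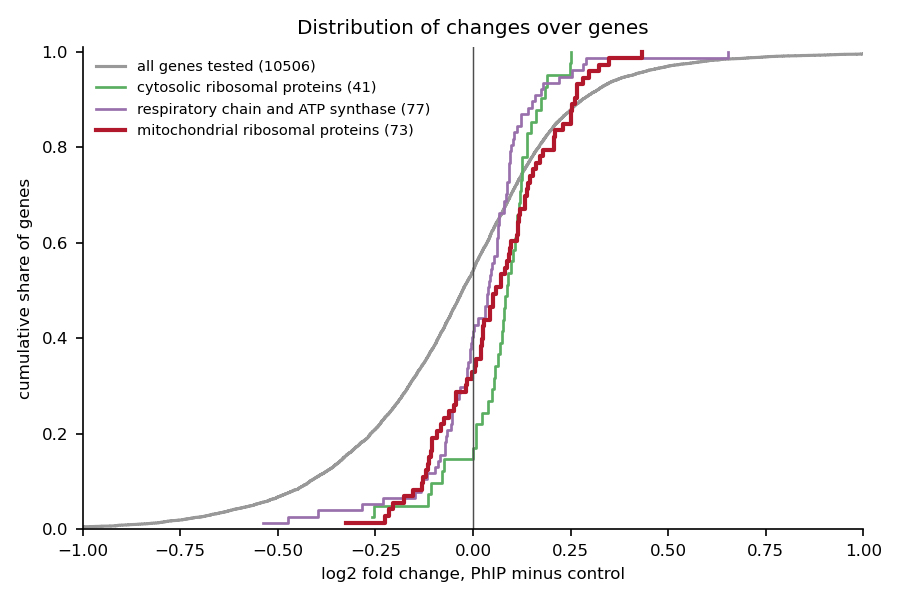
Cumulative share of genes (y axis) at or below each log2 fold change, PhIP minus control (x axis), for all 10506 genes tested, the 73 mitochondrial ribosomal protein genes, 41 cytosolic ribosomal protein genes and 77 genes of the respiratory chain and ATP synthase; the x axis is cut at −1 and 1. The members run from −0.33 to 0.43 and cross 0 to the left of their middle, with a median of 0.06, whereas all genes spread more widely around −0.03.

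The size of the shift differed with the scaling of the arrays. Centring each array on its median moved the median of all genes to 0.11 and that of the members to 0.20, and scaling to the hybridization controls (bacterial and phage transcripts spiked in before hybridization) moved them to 0.18 and 0.29. Relative to all genes, the members' median was 0.09 higher as reported and also after median centring, 0.11 higher with the hybridization controls as the scale, and 0.04 higher after quantile normalization and after cyclic loess. The 49 members above 0 became 67 with median centring, 71 with the hybridization controls, 44 with quantile normalization and 45 with cyclic loess. Members higher at an unadjusted p under 0.05 numbered 20 after median centring, where 16.1% of genes were, and 26 with the hybridization controls, where 22.0% were. The number past the adjustment was 0 in each of these fits.

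**Figure D2:**
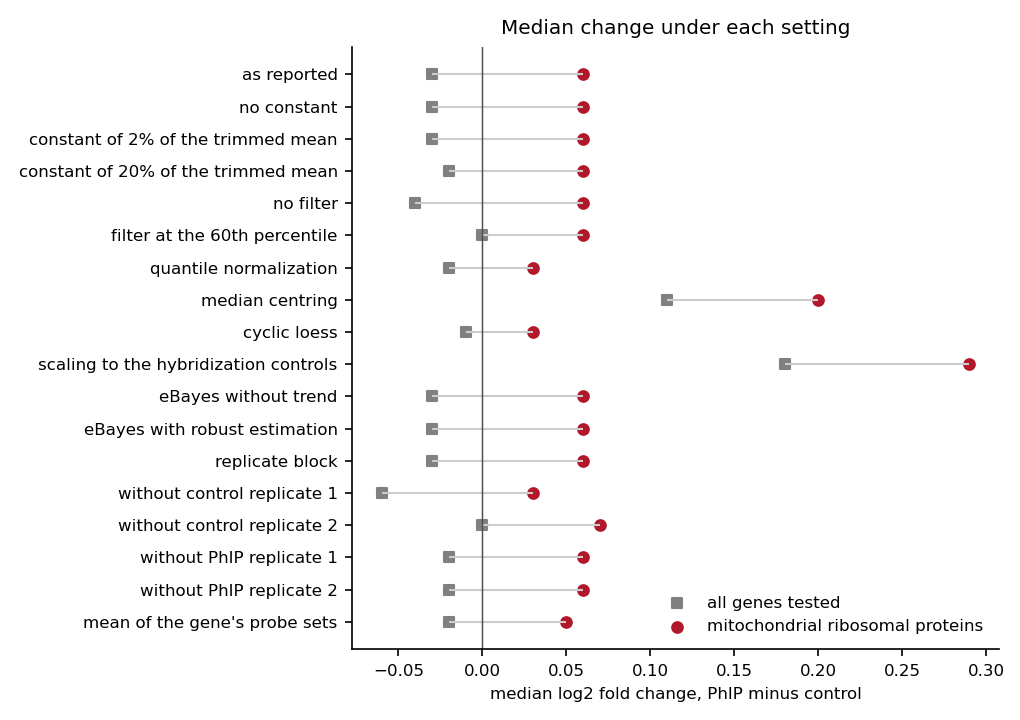
Median log2 fold change, PhIP minus control (x axis), of the 73 mitochondrial ribosomal protein genes (circles) and of all genes tested (squares) under each processing setting (rows). The members' median lies to the right of that of all genes in every row, by 0.04 after quantile normalization or cyclic loess and by 0.11 after scaling to the hybridization controls.

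Among the large-subunit genes the median log2 fold change was 0.08, with 32 genes above 0 and 14 below. Groups did not overlap for 17 on the higher side (37%, against 21.6% of genes tested). On the lower side there were 5 (10.9%, against 27%). Genes of similar brightness had shares of 25.8% and 21.8%. Mrpl14 encodes a conserved protein on the face that meets the small subunit. Its signal was 98.5 and 106.6 in the controls against 146.3 and 137.7 after PhIP, so both PhIP arrays lay above both controls by more than the controls differed. The log2 fold change was 0.43 ± 0.14 (SE; limma unadjusted p = 0.0169, adjusted p = 0.284). Mrpl13, a homologue of a bacterial rRNA-binding protein, had signals of 238.7 and 266.2 in the controls against 310.8 and 336.8 after PhIP (0.35 ± 0.12, unadjusted p = 0.022, adjusted p = 0.304). These groups did not overlap either.

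Next in statistic came Mrpl32, whose protein is cut by a mitochondrial protease before it joins the ribosome. It had 393.0 and 361.6 in the controls against 483.4 and 425.7 after PhIP (0.26 ± 0.12, adjusted p = 0.397). Mrpl22, which lines the tunnel through which the new peptide leaves, had 261.7 and 239.1 in the controls against 299.3 and 301.0 after PhIP (0.25 ± 0.12, adjusted p = 0.413). Both genes were lowest on control 2 and their groups did not overlap. Mrpl18, a homologue of a bacterial protein of the central protuberance, had 608.2 and 683.2 in the controls against 742.0 and 750.7 after PhIP (0.21 ± 0.10, adjusted p = 0.419). Mrpl57, found only in mitochondria, had 371.6 and 290.6 in the controls against 401.3 and 402.6 after PhIP (0.28 ± 0.14, adjusted p = 0.428), and its control arrays lay further apart than control 1 and PhIP 1.

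At the other end of the large subunit stood Mrpl28, a homologue of bacterial L28, with 289.2 and 371.7 in the controls against 243.7 and 276.3 after PhIP (−0.33 ± 0.15, adjusted p = 0.411). The high value was control 2, and the other 3 arrays were closer together. Mrpl37, specific to mitochondria, had 285.1 and 316.6 in the controls against 250.1 and 264.7 after PhIP (−0.22 ± 0.12, adjusted p = 0.488), and its groups were separate. Mrpl38, of the central protuberance, had 113.4 and 124.5 in the controls against 106.0 and 105.5 after PhIP (−0.15 ± 0.14). The groups of Mrpl46 (−0.11 ± 0.15) and of Mrpl44, which has an RNase III-like fold (−0.12 ± 0.16), did not overlap, but the difference was smaller than its SE. Mrpl10 (−0.11 ± 0.13), a protein of the stalk that recruits translation factors, had overlapping groups.

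Among the small-subunit genes the median was 0.03, with 17 genes above 0 and 10 below. Groups did not overlap for 7 on the higher side (25.9%, against 21.6% of genes tested). On the lower side there were 3 (11.1%, against 27%). Genes of similar brightness had shares of 25.8% and 21.8%. Mrps17, a homologue of bacterial S17, had 353.6 and 379.5 in the controls against 444.7 and 459.9 after PhIP. Its log2 fold change was 0.30 ± 0.11 (unadjusted p = 0.0241, adjusted p = 0.311), and the gap between the groups was wider than either pair of arrays. Mrps33, specific to mitochondria, had 341.3 and 327.3 in the controls against 417.3 and 391.7 after PhIP (0.27 ± 0.11, unadjusted p = 0.0398, adjusted p = 0.363), also with no overlap.

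Mrps11, a homologue of bacterial S11, had 165.9 and 138.0 in the controls against 174.5 and 189.8 after PhIP (0.25 ± 0.15, adjusted p = 0.505). Mrps35 had 92.3 and 90.8 in the controls against 96.2 and 141.9 after PhIP (0.32 ± 0.20, adjusted p = 0.519), and PhIP 2 was the high array. Mrps2 had 146.2 and 126.9 against 153.0 and 156.2 (0.17 ± 0.14). Mrps12, the conserved protein of the decoding centre, had 493.1 and 537.0 in the controls against 552.2 and 566.0 after PhIP (0.12 ± 0.10, adjusted p = 0.645). The groups of these 4 genes did not overlap.

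The lowest statistic of the small subunit belonged to Mrps15, a homologue of bacterial S15, with 376.6 and 381.9 in the controls against 322.8 and 323.0 after PhIP. The pools of a group were nearly equal, the groups did not overlap, and the log2 fold change was −0.23 ± 0.11 (unadjusted p = 0.0676, adjusted p = 0.419). Mrps34, specific to mitochondria, had 192.6 and 243.1 in the controls against 182.5 and 190.3 after PhIP (−0.21 ± 0.15), where control 1 lay next to the PhIP arrays. Mrps18b had 428.5 and 426.6 against 393.4 and 407.9 (−0.09 ± 0.10). Mrps27, which contains pentatricopeptide repeats that bind RNA, stood at −0.18 ± 0.20, Mrps9 at −0.13 ± 0.16 and Mrps28 at −0.11 ± 0.14, all with overlapping groups. Of the members below 0 named here, Mrpl10, Mrpl44, Mrpl46, Mrps9, Mrps18b and Mrps28 had a value of 0 or above after median centring, and Mrpl37, Mrpl38, Mrps27 and Mrps34 after scaling to the hybridization controls. The sign also turned when 1 array was left out for Mrps9 (0.04 without PhIP 2) and Mrps27 (0.02 without PhIP 1), and, among genes described further on, for Mrpl12, Mrpl40, Mrps18a and Mrps18c. Mrpl28 stayed below 0 under every setting tried, at −0.11 with scaling to the hybridization controls, where Mrps15 stood at 0.00.

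**Figure D3:**
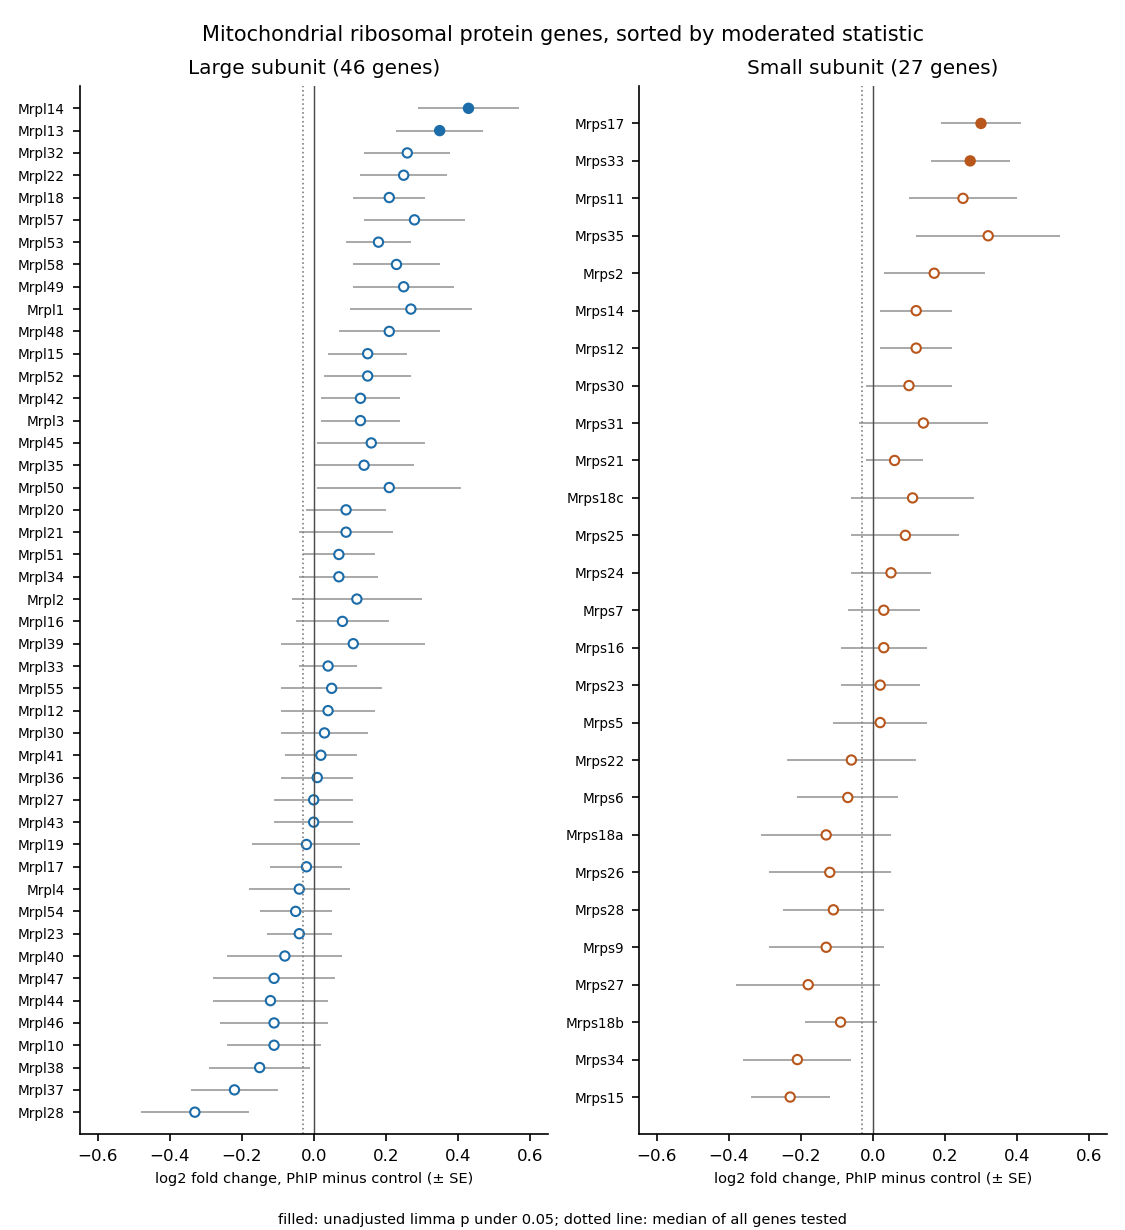
Log2 fold change, PhIP minus control (x axis, bars are ± SE from limma), of each of the 46 large-subunit and 27 small-subunit genes (rows, sorted by moderated statistic); filled points have an unadjusted p under 0.05 and the dotted line marks the median of all genes tested, −0.03. The filled points are Mrpl14, Mrpl13, Mrps17 and Mrps33, and most bars reach or come near 0.

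**Figure D4:**
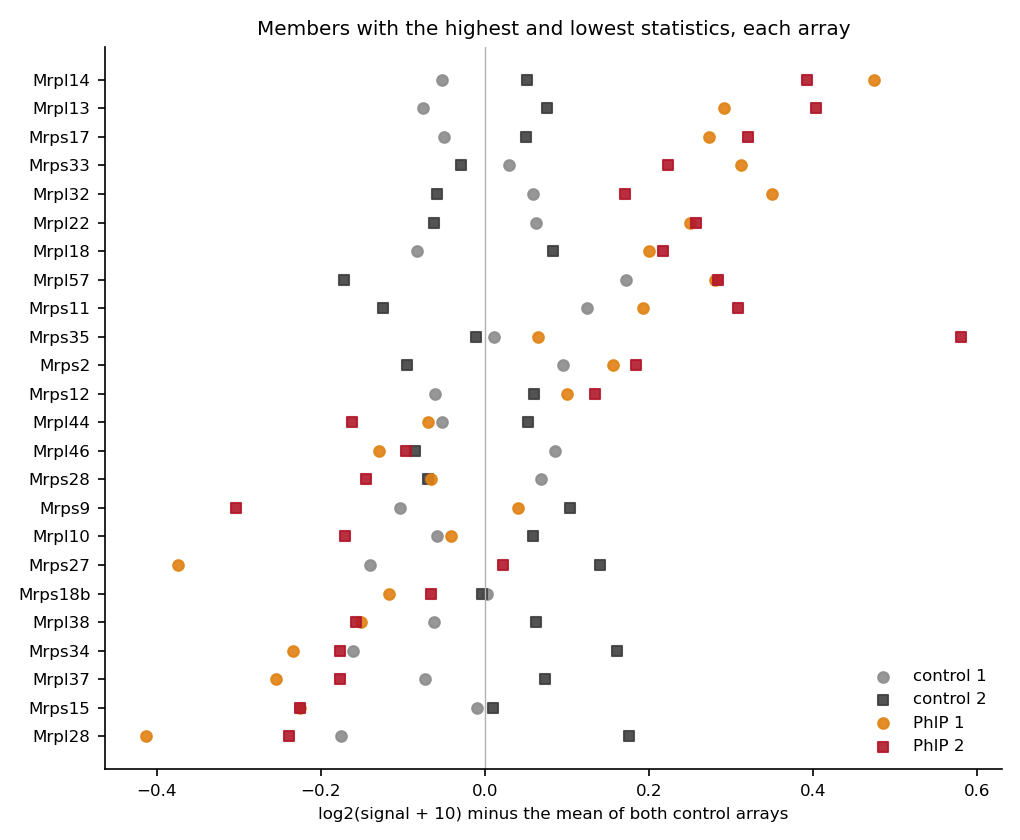
Log2(signal + 10) of each array minus the mean of both control arrays (x axis) for the 24 members with the highest and lowest statistics in each subunit (rows); circles are replicate 1, squares replicate 2, grey control and orange or red PhIP. In Mrpl14, Mrpl13 and Mrps17 both PhIP arrays lie well to the right of both controls, in Mrps15 both lie to the left, and in Mrps35 PhIP 2 stands apart from the other 3 arrays.

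Members with other roles stayed near 0. The stalk gene Mrpl12 had 285.0 and 343.4 in the controls against 340.6 and 306.4 after PhIP (0.04 ± 0.13). Of the paralogues related to bacterial S18, Mrps18c stood at 0.11 ± 0.17 and Mrps18a at −0.13 ± 0.18, beside Mrps18b given above. Mrps18a and Mrps30 (0.10 ± 0.12) carry small-subunit names although their proteins sit in the large subunit. Counting them there left the medians at 0.08 for 48 large-subunit and 0.03 for 25 small-subunit genes. The 44 members with a bacterial homologue had a median of 0.05, with 3 higher (6.82%) and 0 lower at an unadjusted p under 0.05. The 29 specific to mitochondria had a median of 0.09, with 1 higher (3.45%) and 0 lower. Of all genes tested, 6.12% were higher and 8.51% lower at that threshold.

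Of the 73 genes, 18 had further probe sets, 24 in all, of which 18 passed the filter. Among the 15 genes with several tested probe sets, the signs differed in 7: Mrpl10, Mrpl37, Mrpl40, Mrpl51, Mrpl57, Mrps9 and Mrps18c. A second probe set of Mrpl57 had 91.7 and 95.3 in the controls against 81.7 and 62.8 after PhIP (−0.34 ± 0.18), opposite to the brighter one. A second probe set of Mrpl10 had 109.2 and 80.5 against 131.4 and 120.8 (0.39 ± 0.18), also opposite. For Mrpl37 (−0.22 ± 0.12 and 0.00 ± 0.34) and Mrps18c (0.11 ± 0.17 and −0.05 ± 0.23) the dimmer probe set lay near 0. Mrpl40 stood at −0.08 ± 0.16 and 0.15 ± 0.26, Mrps9 at −0.13 ± 0.16 and 0.24 ± 0.14, and Mrpl51 at 0.07 ± 0.10, −0.11 ± 0.13, 0.15 ± 0.16 and 0.33 ± 0.23.

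Probe sets also disagreed for Mrps27, chosen here after its values were seen. A dimmer probe set of that gene had 43.4 and 37.0 in the controls against 12.7 and 22.0 after PhIP (−0.89 ± 0.25, unadjusted p = 0.00777), a larger difference than in any probe set that stood for a member. Another, too dim to be tested, went the other way, with 4.2 and 4.1 in the controls against 18.8 and 18.4 after PhIP. A second probe set of Mrps14 had 235.1 and 237.4 in the controls against 312.2 and 271.5 after PhIP (0.29 ± 0.12, unadjusted p = 0.0491), on the same side as the brighter one (0.12 ± 0.10). Both probe sets of Mrps15 were lower in PhIP, the dimmer by −0.47 ± 0.27.

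The rest of the mitochondrial translation machinery had medians near 0. Most of these lists were dimmer than the members, whose mean log2 level on control 1 was 8.08. It was 7.02 for translation factors, 6.68 for assembly genes and 6.53 for genes that charge tRNAs. No set of similar brightness was drawn for them. Of the mitoribosomal proteins whose symbols do not begin with Mrp, 5 of those listed were measured, with a median of −0.02. Chchd1, a small-subunit protein, had 512.4 and 576.5 in the controls against 427.6 and 441.1 after PhIP (−0.32 ± 0.11, unadjusted p = 0.019, adjusted p = 0.295). The others were Ptcd3 at 0.17 ± 0.14, the small-subunit GTPase Dap3 at −0.17 ± 0.16, Aurkaip1 at −0.02 ± 0.12 and Gadd45gip1 at 0.01 ± 0.13. Of 13 translation factors tested, 0 passed an unadjusted p of 0.05 in either direction, with a median of −0.04. Lrpprc, which stabilises mitochondrial mRNA, stood at −0.19 ± 0.11, the ribosome recycling gene Gfm2 at 0.50 ± 0.31 and the initiation factor gene Mtif2 at 0.34 ± 0.23.

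Genes for ribosome assembly and rRNA modification had a median of 0.00. Of 20 tested, 2 were higher (10%, against 6.12% of genes) and 0 lower (against 8.51%) at an unadjusted p under 0.05: Mterf3 and Gtpbp10. Mterf3, a regulator of mitochondrial transcription and ribosome assembly, had 363.9 and 306.4 in the controls against 453.4 and 413.0 after PhIP (0.36 ± 0.13, adjusted p = 0.299). The GTPase gene Gtpbp10 stood at 0.60 ± 0.23 (adjusted p = 0.347). Malsu1, whose protein binds that of Mrpl14, had 200.4 and 173.1 in the controls against 226.9 and 221.2 after PhIP (0.25 ± 0.13), with no overlap. Of 18 genes that charge mitochondrial tRNAs, 15 for synthetases and 3 for subunits of the glutamyl-tRNA amidotransferase (Qrsl1, Gatb and Gatc), 1 was higher (Iars2, 0.41 ± 0.15) and 2 were lower at that threshold: Fars2 (−0.53 ± 0.17) and Gars1, which serves cytosol and mitochondria (−0.39 ± 0.11). The median of the 18 was −0.04, and 5.56% were higher and 11.1% lower at that threshold, against 6.12% and 8.51% of genes.

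Genes that maintain and transcribe mitochondrial DNA had a median of −0.02, with 0 of 12 past the unadjusted threshold in either direction. Ssbp1, which coats single-stranded mitochondrial DNA, stood at 0.27 ± 0.15, the polymerase subunit gene Polg2 at −0.38 ± 0.21 and the terminator-binding gene Mterf1 at −0.17 ± 0.12. The 9 regulators of mitochondrial biogenesis had a median of −0.10, again with 0 past that threshold. Among them Nrf1 stood at −0.27 ± 0.20, the coactivator gene Ppargc1b at −0.26 ± 0.21 and the nuclear receptor gene Esrra at 0.11 ± 0.11.

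Cytosolic ribosomal protein genes and respiratory chain genes had medians of similar size. Of 41 cytosolic ribosomal protein genes tested, the median was 0.09, with 35 above 0 (85.4%, against 67.1% of members and 45.9% of genes tested). In 23 the groups did not overlap on the higher side (56.1%, against 32.9% and 21.6%). At an unadjusted p under 0.05, 6 were higher (14.6%, against 6.12% of genes) and 2 lower (4.88%, against 8.51%). Of 77 genes of the respiratory chain and ATP synthase, the median was 0.04, with 46 above 0 (59.7%). At that threshold 3 were higher and 3 lower (3.9% each, against 6.12% and 8.51% of genes). The mitochondrial ribosome makes the mitochondrially encoded partners of their subunits. These genes were matched by the first letters of their symbols, so assembly factors such as Ndufaf1 and the inhibitor gene Atp5if1 are among them. The sets also differed in brightness. On control 1 the mean log2 level was 8.08 for the members, 11.6 for the cytosolic ribosomal protein genes and 9.69 for the respiratory genes. It was 7.15 for all genes tested. The difference between the 3 sets was not tested.

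Markers of several cell types had larger log2 fold changes than the members, with medians from −1.09 for skeletal muscle to 0.17 for luminal epithelium. The summed signal of 13 luminal epithelial markers was 31009 to 32869 in control and 35690 to 36281 in PhIP, with 7 of 13 higher and 0 lower at an unadjusted p under 0.05. That of 12 smooth muscle markers was 10110 to 10117 in control and 7247 to 7397 in PhIP (9 lower), and that of 10 fibroblast markers 10004 to 12556 and 7562 to 7697 (8 lower). Skeletal muscle markers summed to 959 and 1832 on control 1 and control 2 and to 546 and 469 in PhIP, and adipocyte markers to 267 to 400 and 114 to 211. At that threshold 3 of 8 skeletal muscle and 3 of 4 adipocyte markers tested were lower. Endothelial markers summed to 359 to 373 and 254 to 264 (2 of 7 lower), nerve markers to 572 to 613 and 378 to 426 (4 of 4 lower) and red blood cell markers to 1811 to 2612 and 904 to 1374 (3 of 3 lower). Basal epithelial markers overlapped, at 898 to 915 and 819 to 911 (1 of 4 lower). Leukocyte markers summed to 5553 to 5600 and 6817 to 6847, with 2 of 6 tested higher and 1 lower. Most of that sum came from the 2 higher ones, Lyz2 (mean 4361 in control, 5347 in PhIP) and Cd14 (841 and 1192). Cd74 (277 and 212) and Cd68 (32 and 21.2) had lower means in PhIP. Of the 6 tested, 3 stood above 0 and 3 below, so the sum does not describe the list as a whole. The summed signal of 15 cell cycle genes was 1652 to 1892 in control and 2956 to 3430 in PhIP (11 higher). Among all genes tested, 6.12% were higher and 8.51% lower at an unadjusted p under 0.05. No marker was listed at 0. The secretory genes Sbp, Andpro and Pbsn had signals from 4273.0 to 10345.2. The dimmest luminal marker, Foxa1, had 53.6 and 49.8 in the controls against 76.4 and 93.1 after PhIP. The part of these groups in the members' values was not tested.

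The arrays differed in other ways too. Median signals were 25.5 and 27.4 for control 1 and control 2, and 23.2 and 23.1 for PhIP 1 and PhIP 2. The 3′/5′ ratio, which grows as RNA degrades, was highest for control 2: 5.71 for actin, with 3.49 to 4.18 elsewhere, and 2.06 for Gapdh, with 1.34 to 1.45 elsewhere. Over the probe sets tested, control 1 had a correlation of 0.972 with control 2. Its correlations with PhIP 1 (0.98) and PhIP 2 (0.979) were higher. Control 2 had 0.967 with PhIP 1 and 0.964 with PhIP 2, and the PhIP arrays had 0.987 with each other. The 18 probe sets of the hybridization controls averaged −0.23 on the log2 scale in PhIP against control. The part of these differences in the members' values was not tested.

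The promoters show what the genes share apart from the array values. The RefSeq promoter table of the rat assembly GRCr8 held a window of 300 bases (250 before the transcript's start and 50 after it) for 59 of the 73 genes. The GABP/ETS core CCGGAAG was found on either strand in 33.9% of the 59 windows and in 11.2% of those of 18999 protein-coding genes. The YY1 core ATGGCGG was found in 22.0% and 6.38%, and the NRF1 palindrome GCGCNNGCGC in 20.3% and 7.96%. Motifs that are common elsewhere differed less: the Sp1 box GGGCGG stood in 50.8% and 43.1%, the CCAAT box CCAAT in 44.1% and 38.4% and the E-box CACGTG in 10.2% and 7.26%. No motif contains another, though matches can share bases. At least 1 of the GABP/ETS, YY1 and NRF1 motifs was present in 36 of the 59 windows (61%) and in 22.0% of the protein-coding ones.

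Some windows began inside the annotated gene, at a transcript that starts further in. With only the windows at the outermost annotated start (32 members and 10960 protein-coding genes), the shares were 31.2% and 8.90% for GABP/ETS, 21.9% and 5.20% for YY1 and 21.9% and 6.27% for NRF1. The members' windows also held more CG dinucleotides, a median of 18 per window against 12, at a GC content of 56.0% and 55.3%. A match of letters is a description and shows no binding.

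Stretches of 120 bases just before the outermost annotated start are given for 4 members as examples, with every matched motif in capitals. Mrpl32 (0.26) holds an NRF1 palindrome and an Sp1 box, and Mrpl53 (0.18) a pair of GABP/ETS cores and an Sp1 box. Mrpl23, near 0 (−0.04 ± 0.09), holds a GABP/ETS core and an NRF1 palindrome. Mrps15 (−0.23) holds CCAAT boxes alone, with no GABP/ETS, YY1 or NRF1 match. All lie on the plus strand of GRCr8, at chr17:55260531-55260650, chr4:117172923-117173042, chr1:207116810-207116929 and chr5:143606021-143606140, and no annotated gene overlaps them.
Mrpl32: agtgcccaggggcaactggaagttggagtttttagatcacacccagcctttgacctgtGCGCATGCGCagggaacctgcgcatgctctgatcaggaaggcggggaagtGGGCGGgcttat
Mrpl53: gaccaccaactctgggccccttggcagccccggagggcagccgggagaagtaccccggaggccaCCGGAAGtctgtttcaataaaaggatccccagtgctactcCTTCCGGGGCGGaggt
Mrpl23: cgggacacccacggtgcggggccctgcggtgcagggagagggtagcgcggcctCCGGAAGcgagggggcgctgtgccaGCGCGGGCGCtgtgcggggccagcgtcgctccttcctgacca
Mrps15: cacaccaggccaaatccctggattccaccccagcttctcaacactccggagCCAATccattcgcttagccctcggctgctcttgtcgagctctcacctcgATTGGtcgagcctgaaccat

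Members with and without a motif had medians close to each other. The median log2 fold change was 0.05 in the 20 members with a GABP/ETS core and 0.07 in the 39 without, 0.10 in the 13 with a YY1 core and 0.06 in the 46 without, and 0.00 in the 12 with an NRF1 palindrome and 0.07 in the 47 without. These are descriptions of the members' values, with no test.

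**Figure D5:**
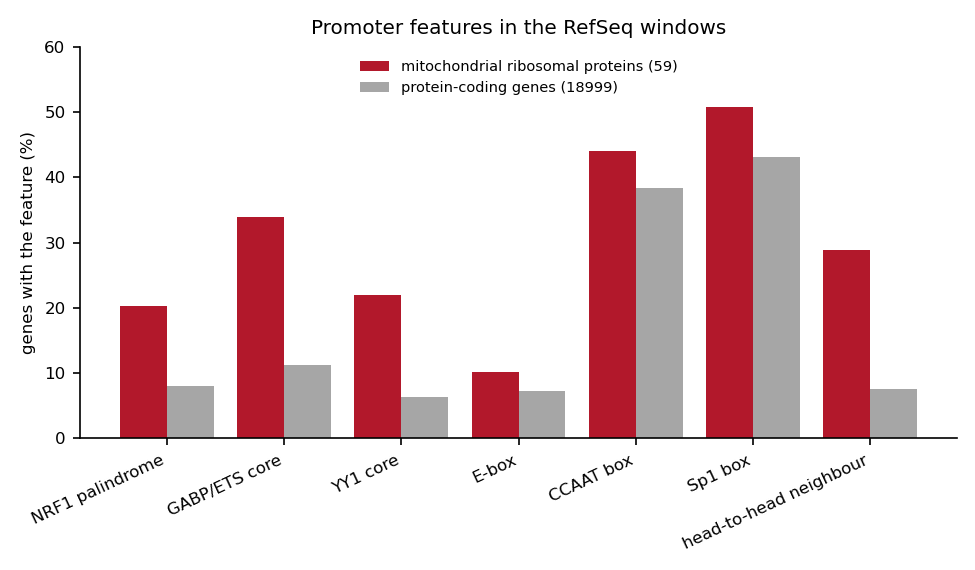
Percent of genes (y axis) whose promoter window holds each motif, or that have a head-to-head neighbour within 1000 bases (x axis), for 59 mitochondrial ribosomal protein genes and 18999 protein-coding genes. GABP/ETS (33.9% and 11.2%), YY1 (22.0% and 6.38%), NRF1 (20.3% and 7.96%) and head-to-head neighbours (28.8% and 7.53%) are the features in which the bars differ most.

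Members often lie head to head with another gene, the starts facing away from each other on opposite strands within 1000 bases. This held for 17 of the 59 members (28.8%) and for 7.53% of the protein-coding genes. The neighbour was tested on the array in 15 pairs, in 8 of which both values had the same sign, with the pair of Mrps11 and Mrpl46 counted from each side. Mrpl18 (0.21 ± 0.10) shares its interval with Tcp1, a subunit gene of the cytosolic chaperonin (0.25 ± 0.09, unadjusted p = 0.0189, adjusted p = 0.295), and Mrpl32 with the proteasome gene Psma2 (0.21 ± 0.13). Mrpl51 (0.07 ± 0.10) lies beside Ncapd2, a condensin gene of mitosis, which stood at 0.73 ± 0.18 (unadjusted p = 0.00393, adjusted p = 0.178). Mrps11 and Mrpl46 are each other's neighbours and stood at 0.25 ± 0.15 and −0.11 ± 0.15. Neighbours were named after their values were seen.

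The members are short genes. Their median genomic span in GRCr8 was 6497 bases, against 23472 for the genes tested. Across the 73 members the span and the log2 fold change had a Spearman correlation of 0.03, and across the 10466 genes with a span it was −0.12. These are correlations across genes of the same 4 arrays, and genes are not independent replicates.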

How the data were processed

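The authors deposited 1 intensity per probe set and array (31099 probe sets, 4 arrays), MAS5 signals on a linear scale per the submitters' processing notes, with no version, scaling target or detection calls given in the sources used here. The trimmed means of the arrays (2% at each end) differed by at most 0.0013%. The labels give 5 µg of total RNA as input.

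From these, the 57 control probe sets were left out and log2(signal + 10) was taken. Probe sets with a mean above the 40th percentile (18625, the lowest mean being 24.3 on the scale of signal plus constant) were tested with limma 3.58.1 in R 4.3.3 (lmFit, eBayes with trend; 2 residual and 5.67 prior degrees of freedom), two-sided. The steps were tested on simulated data. Nothing says that the pools of a group were prepared independently, so p-values measure the spread between these arrays; the number of arrays limits the precision. The platform annotation gave 20832 probe sets 1 symbol, 436 several and 9831 none; 20758 single symbols were matched to GRCr8 by Entrez identifier and 0 changed.

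Members, lists, tests and alternatives were chosen with earlier results of these data known. Named were, in each subunit, the 6 highest and 6 lowest statistics, genes whose tested probe sets differ in sign, and genes with set roles; of other lists, up to 3 with the largest statistic. The promoters shown were picked after the values were seen, since the windows of several of the highest members begin inside the gene or overlap another; only windows at the outermost start were printed. Alternatives were other constants, filters, scalings, variance models, a replicate block, leaving out each array and averaging probe sets. Plots used Python 3.11.15 and matplotlib 3.10.9.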

Additional observations from a re-analysis of the deposited data

How the results depend on the processing

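The members' median kept its sign under every alternative tried, and it stayed within the spread between replicates under other constants, filters and variance models. Quantile normalization and cyclic loess both gave 0.03 (large subunit 0.06 and 0.05, small 0.00 in both), against 0.20 after median centring (large 0.21, small 0.17) and 0.29 after scaling to the hybridization controls (large 0.30, small 0.25). Leaving out each array in turn gave 0.03 to 0.07 for all members, 0.06 to 0.09 for the large subunit and −0.01 to 0.07 for the small, 0 to 13 members higher and 0 to 6 lower at the unadjusted threshold, and 0 to 2334 probe sets past the adjustment. Members higher numbered 20 after median centring, 26 after scaling to the hybridization controls and 1 with eBayes without trend, where 16.1%, 22.0% and 4.04% of genes were higher. Members lower numbered 1 with no filter, quantile normalization, cyclic loess or the replicate block, where 6.83%, 7.40%, 7.35% and 7.75% of genes were lower, and 2 when probe sets were averaged by gene, where 8.81% were. That average was fitted and adjusted on its own, over genes, and brought 99 genes past the adjustment. With 1 probe set per gene 1 passed, but there the adjustment ran over all 18625 probe sets, so the counts are not like for like. Probe sets past the adjustment numbered 0 after median centring, after quantile normalization, without trend and without a filter, 3 after cyclic loess, 22 with a constant of 20%, 44 with the filter at the 60th percentile, 52 with robust eBayes, 158 after scaling to the hybridization controls and 143 at an adjusted p of 0.1. The replicate block gave 35 probe sets past the adjustment, 3 members higher and 1 lower. Deviations of same-numbered arrays from their group means had a correlation of −0.06 over the probe sets tested. With 2 arrays a group, replicate 2 mirrors replicate 1, so this is a single value. It cannot show whether the numbers mark a pairing, which was not tested. Adding the 3 genes written in lower case, an alternative chosen after seeing the data, gave 0.06. The cause of these changes was not tested.

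Signs turned for some members. After median centring, Mrpl10 stood at 0.03, Mrpl40 at 0.05, Mrpl44 at 0.02, Mrpl46 at 0.02, Mrps18a at 0.01, Mrps18b at 0.04, Mrps28 at 0.03 and Mrps9 at 0.00. After scaling to the hybridization controls, Mrpl10 stood at 0.11, Mrpl37 at 0.00, Mrpl38 at 0.05, Mrpl40 at 0.13, Mrpl44 at 0.09, Mrpl46 at 0.09, Mrps18a at 0.09, Mrps18b at 0.13, Mrps27 at 0.02, Mrps28 at 0.11, Mrps34 at 0.01 and Mrps9 at 0.09. Leaving out each array in turn gave −0.09 to 0.18 for Mrpl12, −0.21 to 0.05 for Mrpl40, −0.34 to 0.08 for Mrps18a, −0.10 to 0.33 for Mrps18c, −0.37 to 0.02 for Mrps27 and −0.30 to 0.04 for Mrps9. With 2 pools a group and no detection calls used here, precision is limited: the median absolute log2 fold change of the members was 0.12, and the median absolute difference between the control pools 0.15.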
